A study of Mus musculus with 6 samples.

Results

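Chromatin accessibility was described here at the 8 genes of the urea cycle, Cps1, Ass1, Asl, Arg1, Otc, Nags, Slc25a15 and Slc25a13, in sorted mouse hepatocyte nuclei. Accessibility was measured by ATAC-seq, in which the transposase Tn5 cuts open DNA and tags it for sequencing. All libraries came from male mice with the genotype Ncor1/2 F/F, in which the nuclear receptor corepressor genes are floxed, that is, can be deleted by Cre recombinase. In the dKO group (3 libraries) the mice received AAV-Cre, an adeno-associated virus carrying Cre, and in the control group (3 libraries) they received AAV-eGFP, so floxed alleles and a virus are common to both groups. Livers were taken on day 5 after the virus at ZT10, 10 h after lights on, and nuclei positive for the hepatocyte factor HNF4a were sorted. The age of the mice and the promoter driving Cre are not given by the labels. They also do not tell whether the libraries stem from separate animals, so the spread that the p-values measure is that of these libraries and may be technical.

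A region was a stretch of overlapping peaks of the 6 lists, and it was assigned to the nearest protein-coding gene within 50 kb of its midpoint. Of 109853 regions in all, 77 were nearest to a urea cycle gene. Of these 77 regions, 29 had a peak in all 6 libraries (the shared regions) and could be compared between the groups, as could 51749 regions over the whole genome. The value of a region in a library is the normalized tag count, the number of sequenced tags at its strongest peak scaled to depth by the authors.

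The urea cycle turns the ammonia released from amino acids into urea, and in mammals the whole cycle runs in the liver. In the mitochondria of hepatocytes, NAGS makes N-acetylglutamate, the compound that CPS1 needs to be active, CPS1 joins ammonia and bicarbonate into carbamoyl phosphate, and OTC transfers that group to ornithine. In the cytosol ASS1 and ASL build argininosuccinate and split it into arginine and fumarate, and ARG1 releases urea and gives ornithine back. SLC25A15 carries ornithine into mitochondria and SLC25A13, known as citrin, carries aspartate out of them. The genes are known to be expressed most strongly in hepatocytes near the portal vein and to be induced by glucagon and glucocorticoids.

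Promoter sequences of 5 of the 8 genes were found in the RefSeq table of build GRCm38.p6, the same build as mm10: Ass1, Otc, Nags, Slc25a15 and Slc25a13. They are shown because a region overlaps each of them, shared in 4 and, at Ass1, with a peak in 3 libraries. Each runs 5′ to 3′ on the gene's strand, from 250 bases before the start of transcription to 50 after it. The Slc25a15 stretch, on the minus strand at chr8:22398228-22398527, is that of a downstream start of that gene and has a GC content of 79.0%. The Slc25a13 stretch is on the minus strand at chr6:6217124-6217423 (65.0% GC). That of Otc lies on the plus strand at chrX:10252055-10252354 and had the lowest GC content of those shown, 44.3%. The Nags stretch is on the plus strand at chr11:102145263-102145562 (57.7% GC) and the Ass1 stretch on the plus strand at chr2:31470020-31470319 (74.0% GC). The median over all promoters of the table was 52.7% GC. Capitals mark the matches to the motifs searched.
Slc25a15: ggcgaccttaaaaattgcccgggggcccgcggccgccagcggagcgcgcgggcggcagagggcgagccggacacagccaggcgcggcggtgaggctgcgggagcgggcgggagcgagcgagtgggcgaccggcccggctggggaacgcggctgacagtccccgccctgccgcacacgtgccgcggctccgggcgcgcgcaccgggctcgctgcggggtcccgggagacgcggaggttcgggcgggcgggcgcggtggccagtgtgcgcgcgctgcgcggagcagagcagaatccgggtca
Slc25a13: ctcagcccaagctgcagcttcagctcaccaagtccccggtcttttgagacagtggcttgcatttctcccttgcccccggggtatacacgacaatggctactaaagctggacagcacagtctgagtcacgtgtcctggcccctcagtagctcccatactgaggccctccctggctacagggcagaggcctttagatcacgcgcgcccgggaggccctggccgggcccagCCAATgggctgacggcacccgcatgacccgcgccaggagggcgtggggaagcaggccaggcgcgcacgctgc
Otc: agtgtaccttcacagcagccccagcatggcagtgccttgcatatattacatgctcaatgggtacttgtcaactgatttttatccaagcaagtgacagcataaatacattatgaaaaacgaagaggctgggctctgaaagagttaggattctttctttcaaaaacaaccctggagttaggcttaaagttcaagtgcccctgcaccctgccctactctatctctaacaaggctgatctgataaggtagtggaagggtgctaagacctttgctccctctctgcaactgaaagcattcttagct
Nags: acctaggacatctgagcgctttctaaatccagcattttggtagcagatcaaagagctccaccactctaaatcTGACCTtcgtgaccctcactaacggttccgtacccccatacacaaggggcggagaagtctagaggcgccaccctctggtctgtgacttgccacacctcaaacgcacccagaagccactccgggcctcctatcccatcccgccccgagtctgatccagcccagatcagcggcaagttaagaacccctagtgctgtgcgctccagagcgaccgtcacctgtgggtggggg
Ass1: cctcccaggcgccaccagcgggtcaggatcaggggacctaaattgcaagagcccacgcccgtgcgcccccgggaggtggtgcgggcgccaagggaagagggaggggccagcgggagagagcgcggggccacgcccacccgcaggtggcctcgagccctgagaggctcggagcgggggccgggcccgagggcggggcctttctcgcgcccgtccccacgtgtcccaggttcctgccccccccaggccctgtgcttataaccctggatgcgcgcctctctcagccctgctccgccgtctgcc

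The motifs, searched on both strands, were TATAAA (the core promoter box), AGGTCA (nuclear receptors), TTGCNNAA (C/EBP), TGTTTAC (FOXA), TGTTTGC (also FOXA), TGACGT (core of the cyclic AMP response element), AGAACA (glucocorticoid receptor), GTTAAT (HNF1) and CCAAT. In the 6 promoters of these 5 genes, which include the upstream start of Slc25a15, there were 2 matches. AGGTCA matched on the reverse strand of the Nags promoter, beginning 178 bases before the start, and 16.3% of all 32851 promoters of the table hold it. CCAAT matched in the Slc25a13 promoter, beginning 22 bases before the start, and 37.4% of all promoters hold it. The other motifs had no match in these windows, and of all promoters 3.65% (TGTTTAC) to 18.97% (AGAACA) hold each of them.

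Across the 29 shared urea cycle regions, accessibility fell in dKO nuclei at 16 and rose at 0, and 13 were not called. A call here is a Benjamini-Hochberg adjusted p under 0.05 over all 51749 shared regions in limma. At an unadjusted p under 0.05, 21 were lower and 0 higher, a description only, since that share was not taken over all shared regions. Of all shared regions 11.6% were called lower and 8.19% higher. The regions that fell were at 6 of the 8 genes, Cps1, Otc, Asl, Arg1, Slc25a15 and Slc25a13, while no shared region of Nags or Ass1 was called. Log2 fold changes of the 16 regions, dKO minus control, were between -1.04 and -0.39. The median over all 29 was -0.52, beside -0.02 over all shared regions, and 24 of the 29 were below 0, as were 52.5% of all. In normalized tags, all 3 dKO values lay below all 3 control values in 15 of the 29 regions, as in 15.8% of all shared regions. They lay above all control values in 1, an Arg1 region, as in 12.6% of all. In the centred log2 values used for the fit, they lay below in 21 of the 29, as in 20.6% of all, and above in 1, as in 17.5% of all. In bulk nuclei, fewer cells with an open site and a site less open in every cell cannot be told apart.

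**Figure D1:**
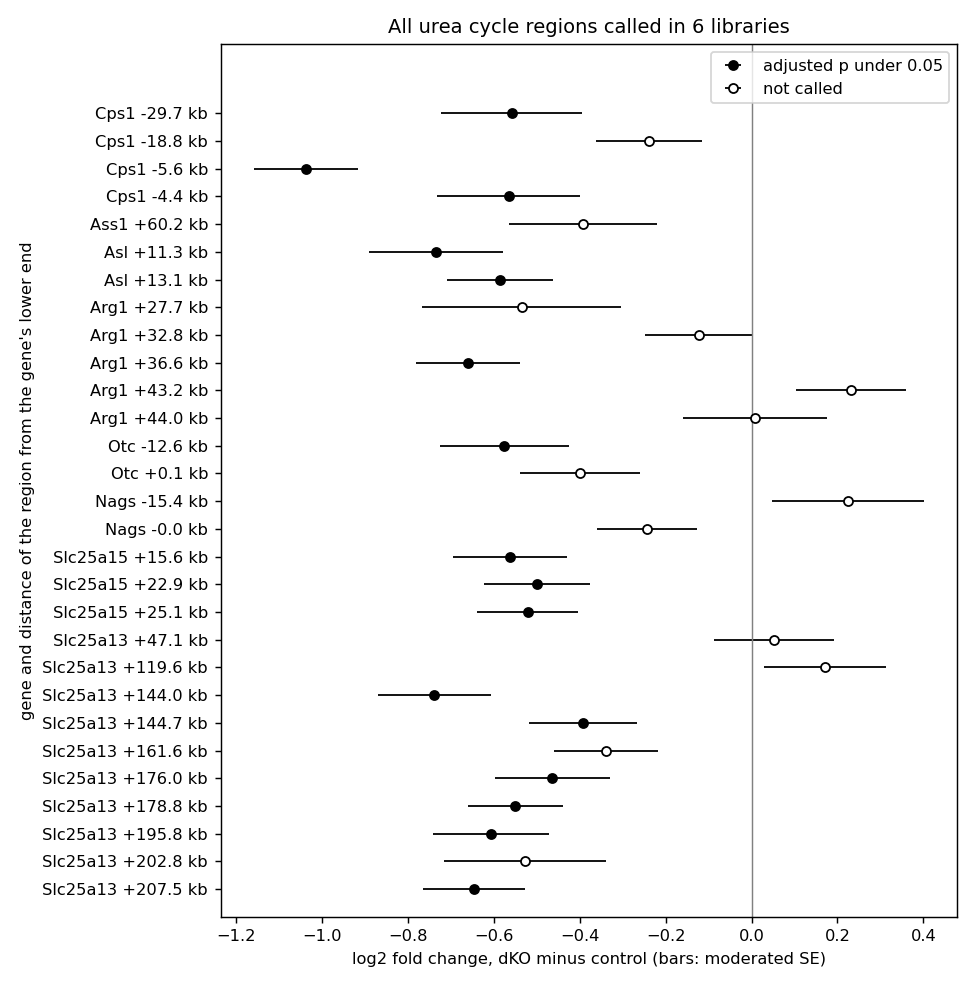
Log2 fold change (dKO minus control, x axis) of each of the 29 urea cycle regions with a peak in all 6 libraries, by gene and distance from the lower-coordinate end of the gene (y axis), with the moderated SE as bars. Filled circles are the 16 regions called lower, which lie between -1.04 and -0.39, and open circles the 13 not called.

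The count of 16 rested on dKO 1 and dKO 2. Without dKO 1 it was 8 (3.98% of all shared regions were then called lower) and without dKO 2 it was 5 (2.71%). Of the dKO libraries, dKO 3 lay nearest to the controls on the first principal component of all shared regions, and it had the highest centred value of the dKO libraries in 19 of the 29 regions. Without dKO 3, all 16 regions stayed lower (adjusted p at most 0.0348) and the count was 19. Calls rose over the genome too, as 15.7% of all shared regions were then called lower. The deposited lists differ in peak width: 108 bp in dKO 1, dKO 2 and control 1, 172 bp in dKO 3 and control 3, and 166 bp in control 2. Of the 29 regions, 23 were below 0 within the 108 bp libraries and 27 within the others. Their median log2 fold changes there were -0.57 and -0.28, beside -0.03 and 0.009 over all shared regions. The 16 regions, picked by their values in these same libraries, were all lower within both width classes. They had log2 fold changes of -1.09 to -0.48 in the 108 bp libraries and of -0.996 to -0.16 in the others. In 15 of the 16 the change was the larger in the 108 bp libraries. The 108 bp libraries include 1 control library and the others 1 dKO library, so these are values with no test.

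Urea cycle regions were strong ones. Their median signal, as the mean over 6 libraries, was 27.9 normalized tags, beside 15.9 for all shared regions. Across all 51749 shared regions, which come from the same 6 libraries, log2 fold change and log2 mean signal had a Pearson r of -0.28, given as a description. The count was also taken among the stronger regions, those with a mean of 20 or more, centred anew. There, 11 of 22 urea cycle regions were called lower, beside 9.49% of 20570. The median normalized tag count of the 29 regions was 22.8, 20.6 and 28.6 in dKO 1 to 3, against 32.6, 33.6 and 34.5 in control 1 to 3. Each dKO median was thus below each control median, while over all shared regions the medians were 15.6, 13.5 and 17.4 in dKO and 16.0, 16.1 and 16.3 in control.

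**Figure D2:**
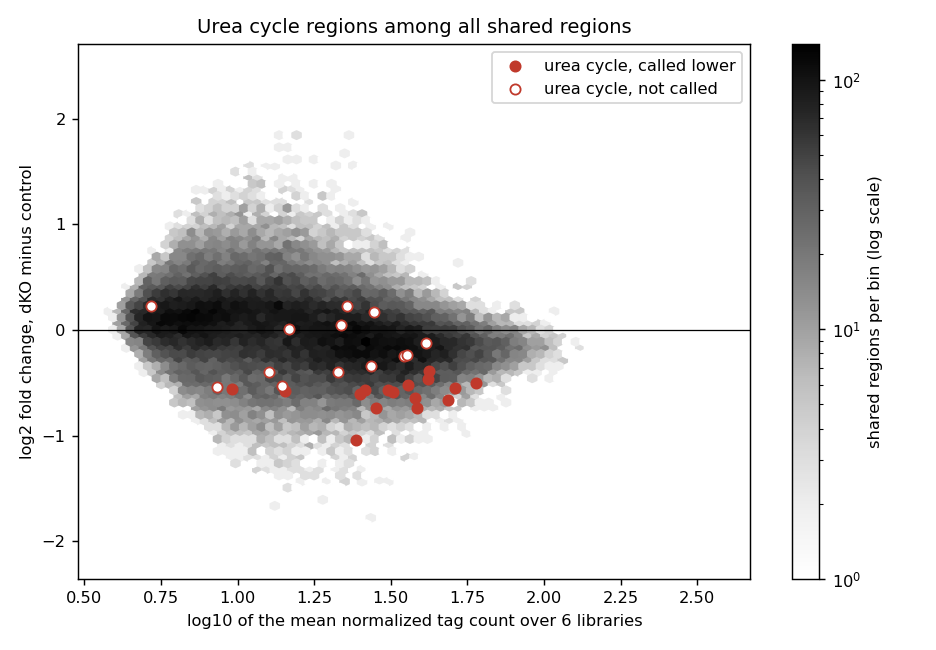
Log2 fold change (dKO minus control, y axis) against the log10 of the mean normalized tag count over 6 libraries (x axis) for all 51749 shared regions, grey by number per bin on a log scale. Urea cycle regions are in red, filled where called lower (16) and open where not called (13), and those called lower lie between -1.04 and -0.39.

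Cps1, the gene of the first and rate-limiting enzyme of the cycle (chr1:67122426-67231267), held the urea cycle region with the largest log2 fold change in size. It had 15 regions, of which 4 were shared, and 3 of these fell. The region at chr1:67116680-67116875, 5649 bp outside the gene, had 15.3, 13.0 and 17.3 normalized tags in dKO 1 to 3, against 34.2, 31.8 and 34.5 in control 1 to 3. The 2 groups were far apart, at 15.2 ± 2.2 on average in dKO, against 33.5 ± 1.5 in control nuclei (SD, n = 3 each). The log2 fold change was -1.04 with an SE of 0.12 (limma adjusted p = 0.000657). Next to it, the region at chr1:67117908-67118094, 4425 bp outside, had 20.1, 16.4 and 23.8 in dKO, against 32.3, 23.2 and 40.6 in control. Here dKO 3 reached just above control 2, so the groups overlapped in normalized tags (log2 fold change -0.57, SE 0.17, adjusted p = 0.0304). A weaker region at chr1:67092545-67092820, 29744 bp away, had 7.11, 5.49 and 9.66 in dKO, against 11.5, 12.8 and 10.8 in control, without overlap (log2 fold change -0.56, SE 0.16, adjusted p = 0.0296). The strongest of the 4, at chr1:67103566-67103766, was not called: it had 33.3, 26.3 and 36.0 in dKO, against 45.5, 36.7 and 35.8 in control (log2 fold change -0.24, SE 0.12, adjusted p = 0.189), with dKO 3 inside the control range.

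All 4 shared Cps1 regions lay outside the gene, beyond its lower-coordinate end. Inside that end, a region at chr1:67122859-67123079 had a peak in 5 libraries, with 18.0, 15.4 and 26.8 normalized tags in dKO, against 38.3 and 38.1 in control 1 and control 2 and no peak in control 3. It was chosen after its values were seen. When regions with a peak in at least 3 libraries were tested, it was called lower (log2 fold change -0.88, SE 0.15, limma adjusted p = 0.00523). Just outside the upper-coordinate end, a region at chr1:67231637-67231752 had 9.38 and 7.58 in dKO 1 and dKO 2, against 6.81 in control 1, and no peak in the others.

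Nags, which encodes the enzyme that makes the CPS1 activator (chr11:102145513-102149528), showed no called change. Its strongest region, chr11:102145410-102145608, has its midpoint 4 bp before the start of transcription, within the promoter shown above. It had 30, 25.7 and 38.6 normalized tags in dKO, against 41.1, 36.6 and 38.0 in control. The dKO 3 value lay within the control range and the change was not called (log2 fold change -0.24, SE 0.12, limma adjusted p = 0.153). The other shared Nags region, 15413 bp away, was weak and had a log2 fold change of 0.22 (adjusted p = 0.394). Of the 6 Nags regions, 4 lacked a peak in some library.

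Otc, an X-linked gene (chrX:10252230-10321024), had 2 shared regions, 1 of them called. Upstream, 12663 bp before the start of transcription, the region chrX:10239491-10239793 had 12.4, 8.62 and 12.1 normalized tags in dKO, against 17.8, 18.5 and 16.3 in control. Every dKO value was below every control value (log2 fold change -0.58, SE 0.15, limma adjusted p = 0.0179). At the start itself, overlapping the promoter shown above, the region chrX:10252209-10252422 had 15.2, 17.1 and 21.0 in dKO, against 26.8, 23.1 and 24.1 in control. These groups did not overlap either, but the change missed the threshold (log2 fold change -0.40, SE 0.14, adjusted p = 0.0590). The other 3 Otc regions were weak, with peaks of at most 5.89 normalized tags. They had peaks in control 2 and control 3 or in control 2 only, and none in control 1 or in a dKO library.

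Ass1, which encodes argininosuccinate synthase (chr2:31470270-31520670), had 5 regions but only 1 shared one, 9762 bp outside the gene at chr2:31530338-31530525. It had 10.7, 8.36 and 12.5 normalized tags in dKO, against 18.2, 14.1 and 12.1 in control, with dKO 3 just above control 3, and was not called (log2 fold change -0.39, SE 0.17, limma adjusted p = 0.125). The promoter region, chr2:31470037-31470173, with its midpoint 165 bp before the start, had a peak in the 108 bp lists only: 22.9 and 23.6 in dKO 1 and dKO 2, against 60.3 in control 1. Among regions with a peak in at least 3 libraries it was called lower (log2 fold change -1.21, SE 0.19, adjusted p = 0.00452), a value that rests on 1 control library.

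Asl, which encodes argininosuccinate lyase (chr5:130011258-130024381), had 2 shared regions and both fell. The one at its upper-coordinate end, chr5:130024239-130024477, had 23.4, 20.6 and 30.9 normalized tags in dKO, against 43.7, 36.3 and 37.7 in control (log2 fold change -0.59, SE 0.12, limma adjusted p = 0.00684). The other, chr5:130022487-130022674, lies inside the gene 1801 bp from that end and had 17.8, 16.0 and 28.6 in dKO, against 33.6, 42.3 and 32.0 in control (log2 fold change -0.73, SE 0.16, adjusted p = 0.00697). In both, dKO 3 was the highest dKO library and still below every control. Both calls missed the threshold without dKO 2, at adjusted p of 0.0548 and 0.0551.

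Arg1, which encodes the arginase that releases urea (chr10:24915207-24927470), had 5 shared regions, all outside the gene beyond its upper-coordinate end, and 1 of them fell. At chr10:24951644-24951901, 24303 bp away, dKO libraries had 34.7, 31.0 and 44.0 normalized tags, against 51.6, 67.7 and 62.7 in control (log2 fold change -0.66, SE 0.12, limma adjusted p = 0.00353). The groups were well apart at this, the strongest shared Arg1 region. The other 4 had log2 fold changes of -0.53 to 0.23 and were not called. Among them, the region at chr10:24958345-24958530, named after its values were seen, was the 1 urea cycle region in which all dKO values (24.1, 24 and 24.4) lay above all control values (21.1, 21.9 and 21.1; log2 fold change 0.23, SE 0.13, adjusted p = 0.221).

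At the upper-coordinate end of Arg1 itself, the region chr10:24927365-24927561 had a peak in all 3 control and no dKO libraries. It was the 1 urea cycle region of 77 with that pattern (1.34% of all regions), and 0 had the opposite one (1.57%). The controls had 48.1, 54.5 and 43.6 normalized tags there, with local folds of 6.19, 4.76 and 5.46. The local fold is the density of a peak over that of its surroundings, per the file headers, and no deposited peak has a local fold below 4, so a site without a peak is not shown to be closed. Further out, at chr10:24928334-24928463, dKO 1 and dKO 2 had peaks of 30.5 and 26, with local folds of 4.26 and 4.16, and no other library did.

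Slc25a15, the ornithine carrier gene (chr8:22375550-22398621), had 3 shared regions and all 3 fell. The strongest urea cycle region of all, chr8:22398320-22398525, lies in the promoter shown above, 145 bp before the downstream start. It had 42.4, 41.7 and 62.0 normalized tags in dKO, against 76.7, 73.1 and 64.1 in control, so dKO 3 came close to control 3 without overlap (log2 fold change -0.50, SE 0.12, limma adjusted p = 0.0138). Upstream of both starts, chr8:22400599-22400789 had 26.9, 24 and 35.4 in dKO, against 46.3, 41.7 and 41.2 in control (log2 fold change -0.52, SE 0.12, adjusted p = 0.00872). Inside the gene, chr8:22391055-22391326 had 22.8, 19.3 and 31.3 in dKO, against 32.6, 41.5 and 39.0 in control (log2 fold change -0.56, SE 0.13, adjusted p = 0.0110). The groups did not overlap in any of the 3. Each of the 3 calls missed the threshold without dKO 1 (adjusted p of 0.05 to 0.0633) and without dKO 2 (0.0652 to 0.0819).

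Slc25a13, the citrin gene (chr6:6041218-6217304), had the most regions, 22, of which 10 were shared; 6 fell and 4 were not called. Inside the gene, 31909 bp after the start, chr6:6185105-6185423 had 23.2, 26.7 and 34.4 normalized tags in dKO, against 49.1, 53.3 and 45 in control (log2 fold change -0.74, SE 0.13, limma adjusted p = 0.00315). The strongest region, chr6:6219892-6220067, lies 2806 bp upstream of the start and had 38.5, 37.2 and 45.9 in dKO, against 69.0, 58.2 and 59.8 in control (log2 fold change -0.55, SE 0.11, adjusted p = 0.00556). Both had the dKO values clear of the controls. Further upstream, chr6:6248599-6248774 had 25.7, 24.9 and 36.1 in dKO, against 49.7, 43.9 and 48.0 in control (log2 fold change -0.65, SE 0.12, adjusted p = 0.00374). Between them, chr6:6236945-6237146 had 17.2, 16.3 and 24.4 in dKO, against 27.0, 32.6 and 33.0 in control (log2 fold change -0.61, SE 0.14, adjusted p = 0.00854). These upstream regions, too, had no overlap between the groups.

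The Slc25a13 promoter region, chr6:6217088-6217263, with its midpoint 2 bp before the start, was also called lower. It had 30.3, 29.2 and 43.9 normalized tags in dKO, against 56.8, 48.7 and 43.0 in control (log2 fold change -0.46, SE 0.13, limma adjusted p = 0.0278). The dKO 3 value lay within the control range, and the call was lost without dKO 1 (0.128), dKO 2 (0.125), control 1 (0.0946) or control 2 (0.0546). It was also lost under quantile normalization (0.0831), under cyclic loess (0.0714), without centring (0.0549), without the variance trend (0.0560) and among regions averaging 20 or more (0.0635). The sixth called region, chr6:6185791-6185978, had 30.7, 32.4 and 43.7 in dKO, against 50.3, 52.4 and 43.3 in control, with dKO 3 just above control 3. Its log2 fold change was -0.39 (adjusted p = 0.0425), and the call was lost without dKO 1 (0.185), dKO 2 (0.123), control 1 (0.1) or control 2 (0.133) and in 8 of the other alternatives. Deep in the gene, 2 regions went the other way without a call: chr6:6160750-6160939 had 29.0, 30.1 and 27.9 in dKO, against 27.0, 30 and 23.7 in control (log2 fold change 0.17, adjusted p = 0.416, but -0.03 in the libraries without 108 bp peaks), and the other had a log2 fold change of 0.05. They were named after their values were seen. Over the 10 shared Slc25a13 regions, log2 fold changes ran between -0.74 and 0.17, and differences between regions were not tested.

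**Figure D3:**
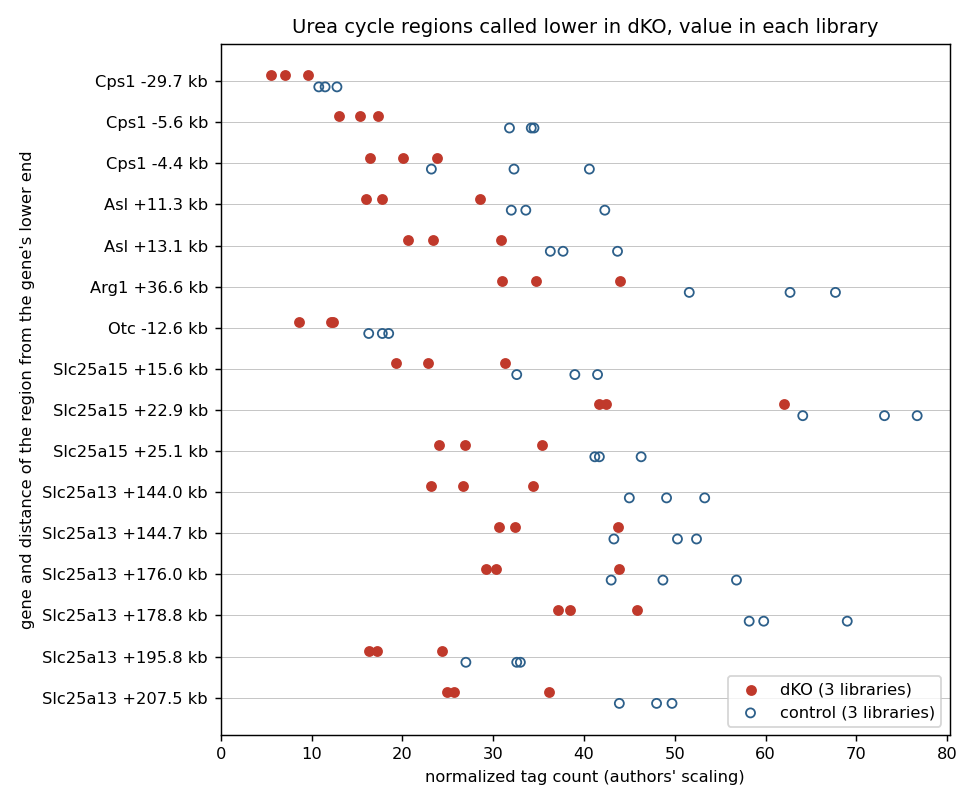
Normalized tag count (x axis) of the 16 urea cycle regions called lower, in each of the 3 dKO (filled) and 3 control libraries (open), by gene and distance from the lower-coordinate end of the gene (y axis). In the second row, the Cps1 region 5649 bp outside the gene, the dKO libraries have 13.0 to 17.3 and the control libraries 31.8 to 34.5.

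**Figure D4:**
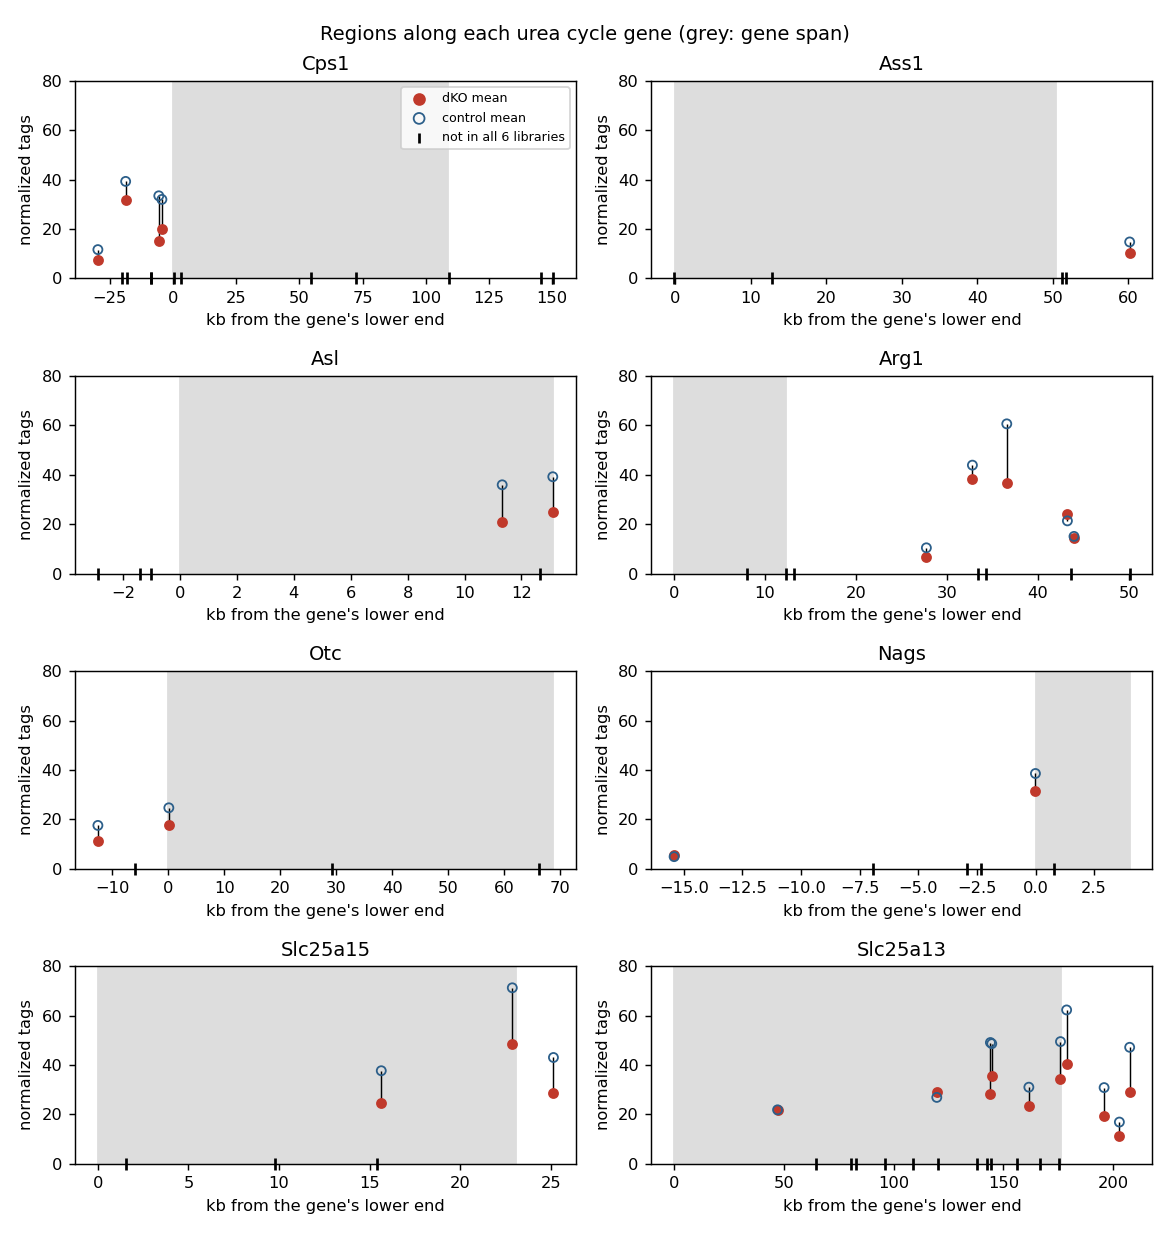
Mean normalized tag count in dKO (filled) and control (open) of the 29 shared regions (y axis) by distance from the lower-coordinate end of each gene in kb (x axis), with the gene span in grey and ticks for the 48 regions not called in all 6 libraries. The control mean is above the dKO mean at all shared regions of Cps1, Ass1, Asl, Otc and Slc25a15.

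By position, 7 of the 11 shared regions inside a urea cycle gene and 9 of the 18 outside one were called lower, beside 9.96% and 12.7% of all shared regions inside a gene and within 50 kb outside one. Within 1 kb of a gene end there were 5, and 3 of them, at Asl, Slc25a15 and Slc25a13, were called lower, beside 10.5% of all 11323 shared regions within 1 kb of an end. The other 2 were the start regions of Otc and Nags.

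The remaining 48 of the 77 urea cycle regions lacked a peak in at least 1 library. Shared regions made up 37.7% of the urea cycle regions and 47.1% of all regions, and regions with a peak in 1 library only made up 22.1% and 16.6%. Peaks were called in 57, 54 and 38 of the 77 regions in dKO 1 to 3, against 58, 41 and 38 in control 1 to 3. By width of the deposited peaks, the number was 54 to 58 in the 3 libraries with 108 bp peaks and 38 to 41 in the others. Local folds were low at the 29 shared urea cycle regions, with medians of 8.76, 7.78 and 6.99 in dKO 1 to 3, against 10.4, 7.31 and 7.21 in control 1 to 3. Over all shared regions the medians were 14.3, 13.2 and 11.1 in dKO and 16.7, 11.3 and 11.1 in control. Of the 48 regions, 20 had a peak in both groups, and the dKO mean was the lower in 17 of them. These means come from unlike sets of libraries. In 14 of the 20, dKO 1, dKO 2 and control 1, the 108 bp lists, all had a peak, and both dKO values were below control 1 in 12. Another 14 of the 48 had peaks in dKO libraries only and 14 in control libraries only. These counts were not taken over all regions, so they are a description only. When regions with a peak in at least 3 libraries were tested, 5 of the 17 added urea cycle regions were called lower, at Ass1, Cps1 (2), Slc25a15 and Slc25a13, as were 5.07% of the 24644 regions added over the genome (6.23% were called higher). Those at Ass1, Slc25a15 and Slc25a13 had peaks in dKO 1, dKO 2 and control 1 only, the 108 bp lists, so they rest on 1 control library. Only 1 was called higher, a weak Arg1 region at chr10:24965185-24965378, with 7.46, 6.06 and 6.74 in dKO, against 3.54 in control 2 and no peak in the other controls (log2 fold change 0.83, SE 0.23, limma adjusted p = 0.0319).

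**Figure D5:**
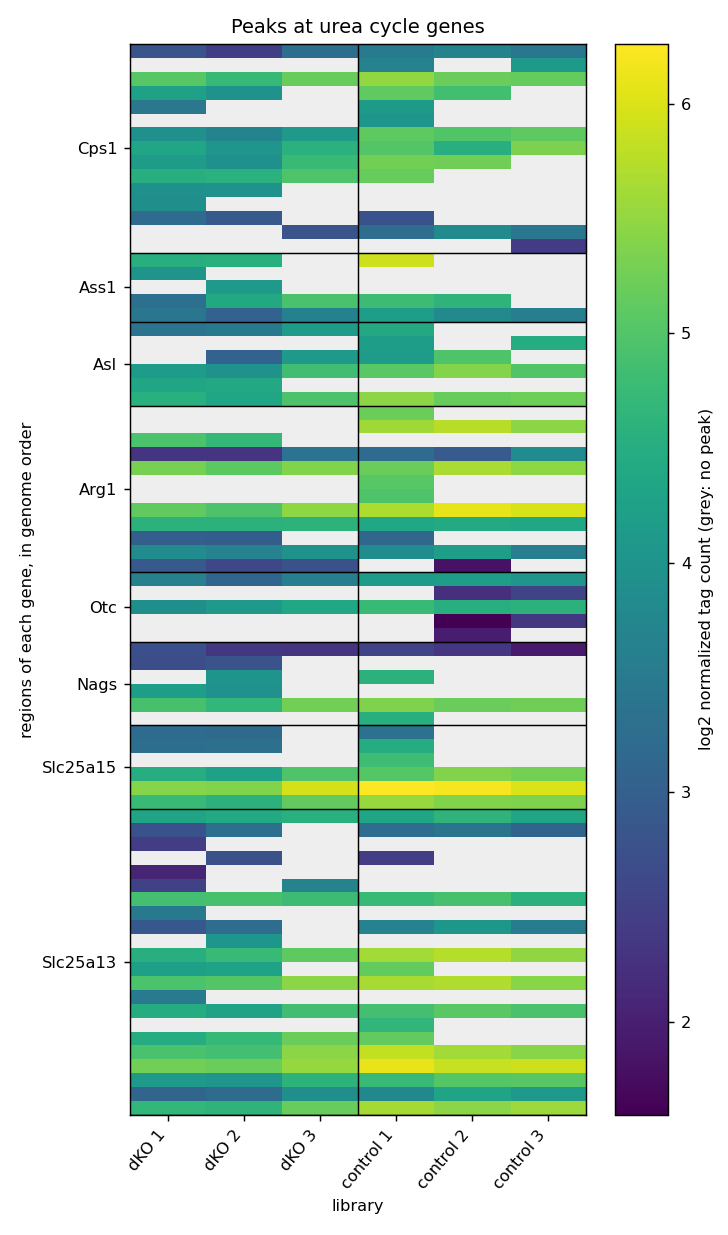
Peaks at the 77 urea cycle regions (rows, in genome order within each gene) in dKO 1 to 3 and control 1 to 3 (columns), coloured by log2 normalized tag count, with grey where a library has no peak. Peaks are present in 57, 54 and 38 regions in dKO and in 58, 41 and 38 in control.

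Genes around the cycle were counted in the same fit, in which 11.6% of all shared regions were called lower and 8.19% higher. Of the 19 genes that supply or capture ammonia, 14 had shared regions, 70 in all, of which 5 rose and 14 fell (20% lower, median log2 fold change -0.02). Among these, a region 14026 bp from Gpt2, a mitochondrial alanine aminotransferase gene, fell (log2 fold change -0.85, SE 0.13, limma adjusted p = 0.00175), as did one 43087 bp from Slc38a2, a neutral amino acid transporter gene (-0.70). Regions 35716 bp from Glul, the glutamine synthetase gene (1.07), and 33872 bp from Slc38a4, another amino acid transporter gene (0.94), rose. Of 30 shared regions at genes of arginine and ornithine use, 4 rose and 4 fell (median -0.12). The smallest p belonged to a region inside Slc7a2, a cationic amino acid transporter gene, with 32.1, 34.2 and 47.6 normalized tags in dKO, against 60.0, 71.5 and 69.6 in control (log2 fold change -0.76, adjusted p = 0.00227). At Azin1, an antizyme inhibitor gene, 2 regions rose (1.13 and 0.92), and 2 rose at Aldh18a1, a proline and ornithine synthesis gene, of which the one inside the gene had 0.74.

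Known regulators of the cycle's genes had 68 shared regions. Of these 2 rose and 28 fell (41.2% lower, median log2 fold change -0.31). Called regions came from few of these genes: 9 of the 28 were at Ppargc1a, which encodes the coactivator PGC-1alpha, 7 at Klf15, a Krüppel-like factor gene, 4 at Cebpa, a C/EBP factor gene, and 4 at Nr3c1, the glucocorticoid receptor gene. Both regions of these genes that rose were at Nr3c1 as well, the larger log2 fold change being 0.66. At Hnf4a, the gene of the factor used for the sort, a region inside the gene had 36.1, 35.6 and 57.0 normalized tags in dKO, against 73.5, 76.9 and 75.6 in control (log2 fold change -0.77, SE 0.13, limma adjusted p = 0.00222). A region 10081 bp from Klf15 had a log2 fold change of -0.67, and 2 regions inside Ppargc1a had -0.62 and -0.59. No shared region was called at Gcgr, the glucagon receptor gene (5 regions), Foxa2, a forkhead factor gene (5 regions), Cebpb, another C/EBP factor gene, or Creb1, the gene of a cyclic AMP responsive factor.

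Zonal markers were counted as well, since the cycle belongs to the periportal liver. Of all shared regions 11.6% were called lower and 8.19% higher. At an unadjusted limma p under 0.05, 7 of 17 shared regions at periportal genes were lower and 0 higher, a share not taken over all regions. Of these 17 regions, 4 were called lower and 0 higher (median log2 fold change -0.17). They lay at Gls2, the liver glutaminase gene (2 regions, -0.59 and -0.38), Hsd17b13, a lipid droplet protein gene (-0.53), and Hal, the histidine ammonia lyase gene (-0.36). At pericentral genes 4 of 22 fell and 2 rose (median -0.11), with Lgr5, a Wnt pathway receptor gene (-0.80), Cyp2e1, a cytochrome P450 gene (-0.69), and Slc1a2, a glutamate transporter gene (-0.39), among those that fell. Each of these 7 calls was lost without dKO 1, without dKO 2 or without either of them, at adjusted p of 0.0532 to 0.195. The Glul region that rose is also in the pericentral list, and the other region of that list that rose was at Axin2. Cyp2f2 and Sds of the periportal list had no shared region. Gls2 and Hal are also among the genes that supply or capture ammonia, so their called regions are counted in both lists.

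The library pattern of the urea cycle was given by the mean centred log2 value of its 29 regions, which was 0.32, 0.40 and 0.50 in dKO 1 to 3, against 0.84, 0.85 and 0.76 in control 1 to 3. Of 2893 other genes with at least 5 shared regions, those with the most alike pattern over the 6 libraries were Wif1, a Wnt inhibitor gene (Pearson r = 0.996, 8 regions), Ppargc1a (0.994, 15 regions), Fam20c, a secretory kinase gene (0.994, 6 regions), Acot7, an acyl-CoA thioesterase gene (0.994, 9 regions) and Stim2, a calcium sensor gene (0.994, 12 regions). The libraries are the same for all genes and fall into 2 groups, so these values are a description only.

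As for the libraries as a whole, the lists held 84614, 81667 and 71473 peaks in dKO and 83371, 72417 and 68316 in control. At Ncor1, 1 of 6 shared regions was called higher and 0 lower, but the labels do not tell which exons are floxed, so peaks do not check the deletion. All 6 hepatocyte markers had regions. In limma, 10 of their 25 shared regions were called lower and 0 higher (14 and 0 at an unadjusted p under 0.05). The genome-wide shares of limma calls were 11.6% lower and 8.19% higher, and those at an unadjusted p were not taken. Called marker regions of the sorted cell type thus moved in the same direction as those of the urea cycle. Summed over their shared regions, hepatocyte markers had 571.4 to 844.1 normalized tags in dKO and 893.5 to 990.1 in control. Among markers of other liver cells, 4 of 23 endothelial regions and 1 of 4 Kupffer and myeloid regions were called lower. Endothelial, stellate and cholangiocyte markers each had 1 region called higher, of 23, 10 and 8, and the 1 lymphocyte region was not called. Krt19, Krt7 and Cftr of the cholangiocyte list and Cd79a, Ms4a1, Cd8a and Nkg7 of the lymphocyte list had no region in any library. Over shared regions, endothelial markers had 255.2 to 344.8 normalized tags in dKO and 321.9 to 421.6 in control (8 of 23 lower at an unadjusted p under 0.05, median log2 fold change -0.23, beside -0.32 for hepatocyte markers). Kupffer and myeloid markers had 57.2 to 79.9 in dKO and 71.8 to 85.1 in control, and stellate markers 102.1 to 123.4 in dKO and 102.8 to 111.0 in control. Cholangiocyte markers had 74.8 to 102.3 in dKO and 78.6 to 101.4 in control, and the lymphocyte region 5.89 to 8.14 in dKO and 5.98 to 6.92 in control. The part of any of these markers in the urea cycle values was not tested.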

How the data were processed

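HOMER 4.11, SAMtools 1.10, Picard and Trim Galore 0.6.4 are named in the submitters' processing notes, with build mm10; no source used here gives the aligner, filters or calling options. Each library has its own deposited HOMER peak list, with peaks not called on pooled libraries. Per the file headers, the deposited columns are a normalized tag count (a signal scaled by the authors to a depth not stated), a peak score, a p-value, a focus ratio (which is a fraction), and a clonal fold and a fold over the local surroundings (each a ratio). The depth behind the deposited signal is unknown, so no count model or interval was used.

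Peaks sharing at least 1 bp were merged on chromosomes 1 to 19 and X. Regions were linked to RefSeq gene spans of GRCm38.p6. Log2(value + 1) of the shared regions, centred on each library's median over them, was fitted with limma 3.58.1 (R 4.3.3, mean-variance trend, 2-sided, Benjamini-Hochberg over all shared regions, threshold 0.05), with group as the only term. Folds are on this log2 scale, which understates weak regions, and SE is moderated. Coordinates are as deposited.

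The members, gene lists, motifs and markers were chosen with earlier results of these data known. Named regions are, for each gene, up to 4 called regions with the smallest p, the strongest shared region, the one nearest to a RefSeq start (or, without a start in the table, to a gene end) and those of one group only; other lists name up to 4. The alternatives covered normalization, pseudocount, filters, merging, gene links, a replicate block, the variance trend and each library left out; peak width as a term was added after seeing the data.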

Additional observations from a re-analysis of the deposited data

How the results depend on the processing

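The count of urea cycle regions called lower, 16 of 29, was within 1.5 times under every alternative over all 6 libraries. It was 13 under quantile normalization and cyclic loess, and 14 without centring and without the variance trend. It stayed 16 with a pseudocount of 0 or 5, with peaks merged at 50 bp and with peaks summed. Filters changed the number tested: 11 of 22 were called among regions averaging 20 or more and 11 of 17 with links within 10 kb. With the higher-scoring peaks of each list 12 of 22 were called, and 20 of 46 when a peak in at least 3 libraries sufficed. The count was 15 with peak width as a term. Over all regions tested in the refits of all 6 libraries, 8.73% (at least 3 libraries) to 14.3% (replicate block) were called lower. Leaving out 1 library gave 5 to 19, with 8 without dKO 1 and 5 without dKO 2, beside 2.71% to 15.7% of all shared regions. The count called higher was 0 in all of these, leave-one-out fits included (0 to 0), except 1 when a peak in at least 3 libraries sufficed. The labels do not say whether equal replicate numbers pair the libraries, and the values do not settle it. Same-numbered libraries had correlations of their deviations of 0.15, -0.03 and 0.23. The last was the highest of all pairs, while dKO 2 correlated best with control 1 (0.16). With the replicate number as a block, 19 regions were called lower and 0 higher, while 14.3% of all shared regions were called lower, beside 11.6% without it. The 3 added were the Otc start (limma adjusted p = 0.0456), Arg1 at 24942838 (0.0203) and Slc25a13 at 6243899 (0.018). Of the 16 regions, 5 kept their call in every refit of the values: Cps1 at 67116680, Arg1 at 24951644 and Slc25a13 at 6185105, 6219892 and 6248599. Links within 10 kb refit nothing and leave out that of Arg1 and the last of Slc25a13. The Cps1 region at 67117908 lost its call in 8 alternatives, with adjusted p of 0.0679 to 0.136, among them quantile normalization (0.0679), cyclic loess (0.0868) and the fit without control 3 (0.118). That at 67092545 lost it without dKO 1 (0.0991), dKO 2 (0.153), control 1 (0.0592) or control 2 (0.0905), and the upstream Otc region without dKO 2 (0.104) or control 2 (0.0565). The Slc25a13 region at 6236945 lost it without dKO 1 (0.0545) or dKO 2 (0.0563). The cause was not tested. The Slc25a13 region at 6185791 lost it in 12 alternatives (0.0502 to 0.185). Among regions of other lists, those that lost it most often were Gls2 at 128194301 (14 alternatives), Hal at 93518684 (11) and Slc1a2 at 102745269 (10). Of the 29 shared urea cycle regions, 3 changed direction, all not called in any of these fits. Arg1 at 24947885 had log2 fold changes of 0.0515 under quantile normalization, 0.0413 under cyclic loess and 0.0199 among regions averaging 20 or more. Arg1 at 24959055 had -0.0066 under quantile normalization, -0.0531 without centring and -0.014 under cyclic loess, and -0.14 to -0.0024 without dKO 2, control 1 or control 3 (-0.0034 without dKO 2). Slc25a13 at 6088221 had -0.0098 without centring and -0.041 without dKO 2 (up to 0.1426 with another library left out). The named regions of the other lists kept theirs.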
